A study of Mus musculus with 8 samples.

Results

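The 6 genes of angiopoietin, Tie and apelin signaling described here were followed through the lung cells of 8 mice: the angiopoietin ligands Angpt1 and Angpt2, their receptor Tek (also called Tie2), the related receptor Tie1, the peptide Apln (apelin) and its receptor Aplnr. They were taken by name from the 33027 genes of the deposited matrix, which held all 6. They were described in the 11 annotated endothelial, mural, fibroblast and mesothelial cell types, which hold 22357 of the 40074 cells kept. The mice were C57BL/6 Sftpc-CreERT2-mTmG animals, in which tamoxifen given at 8 to 10 weeks of age switches a green reporter on in alveolar type 2 cells that express Sftpc. The reporter and the Cre were carried by every mouse of both groups, and the green label marks none of the types described here by design. From 2 weeks later, 4 mice were exposed to cigarette smoke (CS mice C2, C5, D2 and D5) for 6 hours a day on 5 days a week over 10 months, and 4 were kept in room air (RA mice F1, F3, M1 and M3). Lungs were digested with collagenase and elastase, CD45+ blood cells were brought to 10% of the suspension, and 1 single-cell library per mouse was sequenced. The number of cells of a type therefore follows the digestion and the mix as well as the lung.

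Angiopoietins act on the endothelium through Tek, a receptor tyrosine kinase. Angpt1, made mostly by cells around the vessel, activates Tek and keeps vessels quiescent, whereas Angpt2, made by endothelial cells themselves, can activate or block the receptor depending on the setting. Tie1 binds no angiopoietin strongly by itself and forms complexes with Tek. Apelin is a secreted peptide that signals through the G protein-coupled receptor Aplnr. In the mouse lung, capillaries hold a pair of endothelial types, the general capillary (gCap) cells and the aerocytes, large cells specialized for gas exchange, and apelin and its receptor are known markers of these types.

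As a mean over mice, each of the 11 types held the highest summed level of its own marker list among them. Arterial cells held 7.57 transcripts per 10,000 of the arterial list, followed by gCap cells at 4.88, and 42.2 of the venous list. By mouse, the arterial list ran from 4.90 to 10.7 in arterial cells and from 2.32 to 5.70 in gCap cells, which overlap. The labels of the 4 RA libraries matched their sex-linked transcripts, but both CS libraries labelled male held Xist (7.83 and 8.34 transcripts per 10,000) and both labelled female held the Y-linked Ddx3y (0.925 and 1.08). Each group still holds 2 libraries of each kind, and no result below uses sex. Across libraries, 394 cells had a barcode found in another library. Total unique molecular identifiers (UMIs) per mouse ran from 31094695 to 52753531, and the median per cell from 4254 to 6473. RA mouse F1 stood apart from the other 7 mice in several genes below. Values are means over the cells of a type in 1 mouse, in transcripts per 10,000, and n is the number of mice with at least 20 cells of the type. Only D5, F1 and F3 had 20 pericytes, and only C5, D2 and F1 had 20 smooth muscle cells. Peribronchial fibroblasts reached this number in 3 CS and 3 RA mice, mesothelial cells in 3 CS and 4 RA mice, and the other types in all 8.

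All positions are in GRCm38. Angpt1 lies on chromosome 15 from 42424723 to 42676977 on the minus strand, overlapping Gm17473 on the plus strand, and the longest coding transcript has 9 exons. Angpt2 lies on chromosome 8 from 18690263 to 18741562 on the minus strand, also with 9 exons, and falls inside the span of Mcph1, a DNA damage gene on the plus strand. Tek lies on chromosome 4 from 94739289 to 94874976 on the plus strand (23 exons), and Tie1 on the same chromosome from 118471191 to 118490061 on the minus strand (22 exons). Apln lies on chromosome X from 48025146 to 48034853 on the minus strand (3 exons). Aplnr lies on chromosome 2 from 85136225 to 85139923 on the plus strand, in a single exon. The windows before the RefSeq starts of Tek, Tie1 and Apln are shown because they are the members with a promoter among the RefSeq sequences used here, 3 of the 6 genes. Each runs 5′ to 3′ on the gene's strand from 150 to 31 bases before the start, in GRCm38.p6, with the core of the ETS factor motif (GGAA, or TTCC on the other strand) in capitals.
Tek, chr4:94739139-94739258, plus strand: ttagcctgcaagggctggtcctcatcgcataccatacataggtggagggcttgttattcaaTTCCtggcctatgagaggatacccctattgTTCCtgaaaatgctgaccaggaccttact
Tie1, chr4:118489880-118489999, minus strand: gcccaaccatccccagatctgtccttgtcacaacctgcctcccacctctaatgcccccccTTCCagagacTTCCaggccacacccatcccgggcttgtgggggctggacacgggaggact
Apln, chrX:48034884-48035003, minus strand: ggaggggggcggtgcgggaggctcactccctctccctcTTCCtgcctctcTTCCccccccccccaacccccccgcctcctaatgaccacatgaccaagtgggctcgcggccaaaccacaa
The Tie1 window lies wholly inside the Tie1 span given above, as the RefSeq start used lies within the annotated gene. The windows of Tek and Apln lie outside their spans. Each printed window holds 2 ETS cores. In the full 250 bases before the start, Tie1 holds 7, a number reached or passed by 3.82% of 32851 promoters, Apln holds 3 and Tek holds 2. At least 1 core was found in 93.4% of all these promoters. The forkhead motif GTAAACA and the GATA motif AGATAA, searched on both strands, were found in none of these 3 windows, and in 3.17% and 9.99% of all promoters. These matches are letters in a window and were not tied to any measurement here.

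Among the 11 types, Angpt1 was highest in alveolar fibroblasts and pericytes. In alveolar fibroblasts, the stroma between the air spaces, it was found in 90.6% of 2014 cells, at 10.7 ± 1.26 transcripts per 10,000 (SD, n = 8). The lowest mouse had 8.67 and the highest 13.1. These cells held 55.3% of all Angpt1 transcripts as a mean over mice, with 33.6% in the lowest mouse and 70.6% in the highest. Pericytes, the cells that wrap capillaries, held 6.24, 9.15 and 18.9 in the 3 mice with 20 cells, a range that overlaps that of alveolar fibroblasts. Smooth muscle cells held 3.23, 3.40 and 5.50, and adventitial fibroblasts, which lie around larger vessels and airways, 2.09 to 3.56. Adventitial fibroblasts held 17.7% of the Angpt1 transcripts, gCap cells 6.60% (up to 14.6% in a mouse), goblet cells 4.87%, pericytes 3.82% and smooth muscle cells 1.83%. Peribronchial fibroblasts were lower, at 0.639 to 1.36 (n = 6), and did not overlap adventitial fibroblasts.

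Angpt1 was also found in endothelial cells, at lower levels. It was detected in 20.8% of 730 arterial cells (median 4691 UMIs) and 8.67% of 9988 gCap cells (median 3833 UMIs), compared with 1.37% of 2334 B cells (median 4055 UMIs), which should lack it. The level was 0.608 ± 0.323 in arterial cells and 0.335 ± 0.179 in gCap cells (SD, n = 8). In aerocytes, 2.08% of cells held it, close to the B cell share, and in venous cells 2.58%. Thinned to 2000 UMIs a cell, the shares were 10.0% in arterial, 5.01% in gCap, 0.927% in aerocytes, 0.864% in venous cells and 0.70% in B cells. Outside these types, Angpt1 was found in 25.6% of NK and cytotoxic T cells (18.7% thinned) and in 61.3% of goblet cells, which are the deepest cells named here (median 35093 UMIs, 11.6% thinned).

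Angpt2 was highest in lymphatic endothelial cells, which line the vessels that drain fluid. It reached 2.20 ± 0.969 (SD, n = 8) and was found in 42.2% of 512 cells. In 7 of the mice the lymphatic level lay between 1.56 and 3.22, whereas RA mouse F1 had 0.239 over 35 cells. Pericytes held 0.244, 0.90 and 3.48 in the 3 mice with 20 cells, smooth muscle cells 0.513, 0.701 and 1.57, and peribronchial fibroblasts 0.216 to 0.809 (n = 6). These ranges overlap each other and that of lymphatic cells. Blood endothelium held less, with 0.319 ± 0.25 in arterial, 0.249 ± 0.0759 in gCap, 0.213 ± 0.113 in venous cells and 0.0618 ± 0.0317 in aerocytes (SD, n = 8 each). Because gCap cells are so many, they held the largest share of Angpt2 transcripts among all types, 33.2%, compared with 23.7% in lymphatic cells and 4.12% in arterial cells. B cells held an Angpt2 transcript in 0.771% of cells, and arterial cells in 13.4%. Not every type outside those described here was as low as B cells. The 1411 cells annotated as NG held 0.318 Angpt2 as a mean over mice, with 0.130 in the lowest mouse and 0.570 in the highest. This mean was close to that of arterial cells and above those of gCap and venous cells, with overlapping ranges. The Angpt2 level of blood endothelium thus did not stand clear of all other cells.

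Among the 11 types, both receptors were highest in endothelium, and they differed in aerocytes. Tek was highest in gCap cells at 9.60 ± 1.49 (SD, n = 8; 90.4% of cells), followed by arterial cells at 6.99 ± 1.16 and venous cells at 6.57 ± 0.719, whose ranges overlap. Lymphatic cells held 1.33 ± 0.404 and did not overlap any of these. Aerocytes held 0.457 ± 0.226, with a highest mouse at 0.866, in 14.6% of cells (median 4623 UMIs). Tie1, in contrast, was found at a similar level in the 5 endothelial types. Their means ran from 3.0 ± 0.444 in aerocytes to 4.11 ± 0.497 in gCap cells, neighbours in this order overlapped, and 70.3% to 79.5% of the cells of each type held it. B cells held Tek in 3.26% and Tie1 in 3.09% of cells. Outside the 11 types, the 115 cells annotated as erythrocytes held 4.44 Tek (56.5% of cells) and 1.54 Tie1 (43.5% of cells).

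Tek transcripts were also present in adventitial fibroblasts, at 0.547 ± 0.0799 (SD, n = 8) and in 29.6% of 1403 cells. The fibroblasts were split by the endothelial transcripts Pecam1, Cdh5 and Cldn5. The 675 cells with at least 1 of them held 0.567 Tek and 0.0971 Tie1 per 10,000, and the 728 cells without held 0.520 Tek and 0.00657 Tie1. The Tek level was thus close between both sets of cells, while that of Tie1 was not. In alveolar fibroblasts the same split gave 0.445 Tek in 836 cells with endothelial transcripts and 0.0819 in 1178 cells without.

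Apelin and its receptor lay in different capillary cells. Apln was found in 59.0% of 4240 aerocytes, at 2.92 ± 0.909 (SD, n = 8), and aerocytes held 89.9% of all Apln transcripts as a mean over mice. No other endothelial type passed 0.0609 in any mouse, and in gCap cells 1.21% of cells held it, compared with 0.943% of B cells. Aplnr was highest in gCap cells at 0.624 ± 0.277 (SD, n = 8), in 18.6% of cells, with 0.257% in B cells. Among the 11 types, venous cells followed at 0.185 ± 0.163 (6.55% of cells), and their range overlaps that of gCap cells. Aerocytes held Aplnr in 0.896% of cells. The cells annotated as erythrocytes held 0.374 (13.9% of cells), more than venous cells. A cell with both transcripts was rare, with 39 of 9988 gCap cells (0.390%) and 29 of 4240 aerocytes (0.684%). Because the types were named from clusters of these same cells, differences between types are given without a test.

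**Figure D1:**
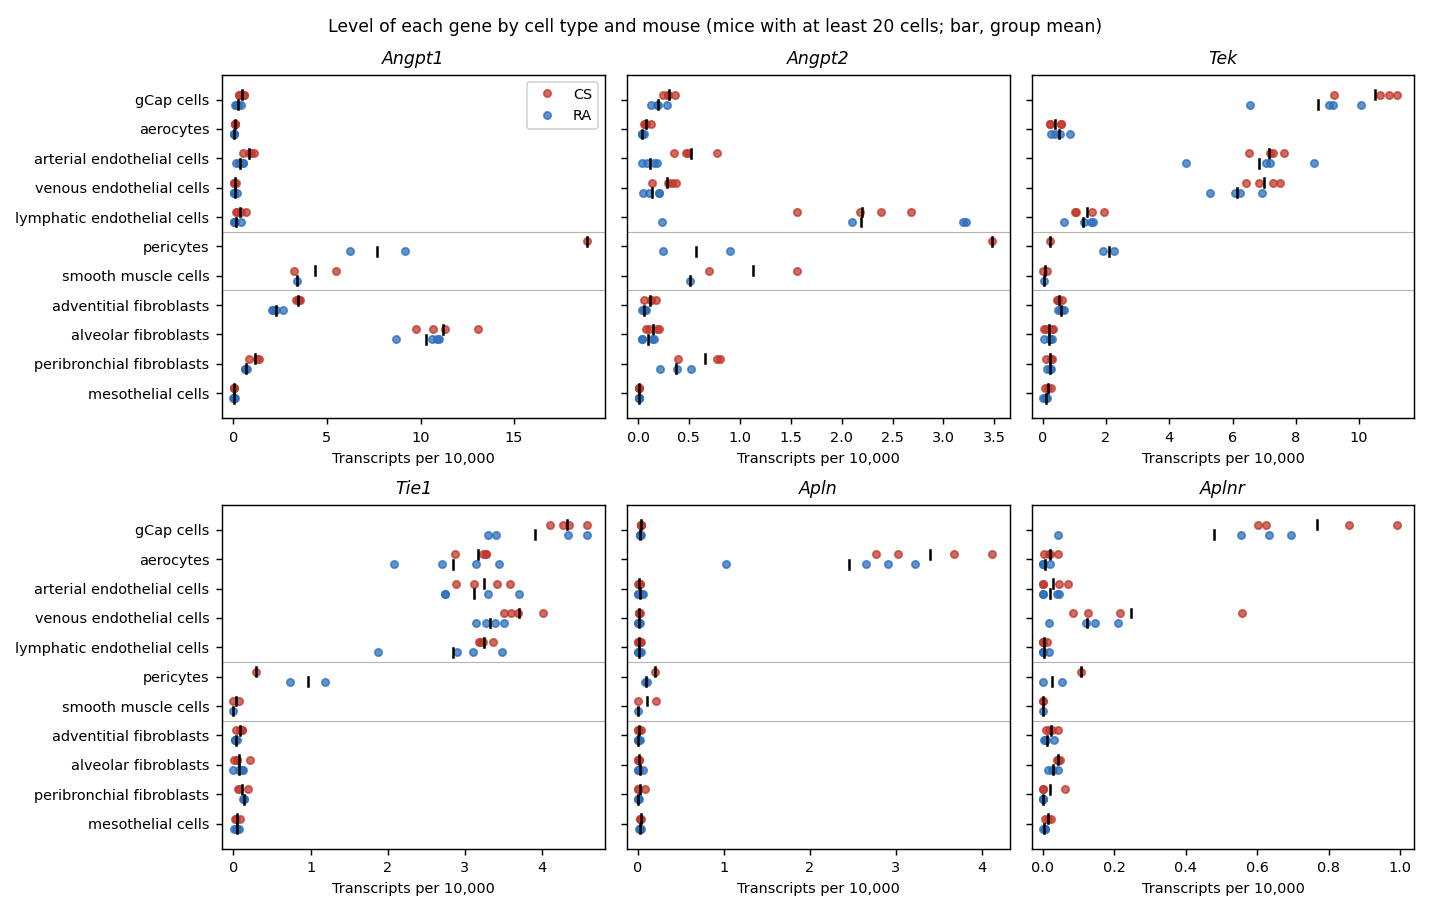
Level of the 6 genes by cell type. Each point is 1 mouse with at least 20 cells of the type, as mean transcripts per 10,000 on the horizontal axis (a separate scale for each gene), red for CS and blue for RA, and black bars are group means. Angpt1 lies in mural cells and fibroblasts, Tek and Tie1 in endothelium, with aerocytes low for Tek and not for Tie1, Apln in aerocytes and Aplnr in gCap cells.

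The genes most like each member were found from Pearson's r of log2(mean over mice + 1) across 32 cell types, among 7607 genes that reached 1 transcript per 10,000 in a type. These values describe 1 set of types that share libraries. Tek was closest to Ptprb (r = 0.989), the phosphatase that acts on Tek, followed by Acer2 and Gpihbp1. Tie1 was closest to Ccm2l, Shank3 and Ushbp1 (r = 0.996, 0.994 and 0.987). Apln was closest to Rprml, Slc5a12 and Chst1 (r = 0.998, 0.998 and 0.981), Angpt1 to Ppp1r14a, Rasl12 and Ednra (r = 0.945, 0.926 and 0.913), and Angpt2 to Mtss1l, Fam124a and Pgf (r = 0.921, 0.918 and 0.917). Aplnr reached 1 in no type and was left out.

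CS and RA mice were then compared within each type, to ask whether smoke changes vessel signaling at the level of these transcripts. Fits were made with limma on log2(mean + 1) for the genes detected in 10% or more of the cells in CS or in RA mice. The threshold was a Benjamini-Hochberg adjusted p of 0.05. Of 66 pairs of a gene and a type, 30 passed the filter and 4 were called. In endothelium 1 of 19 tests was called, Angpt2 in arterial cells, higher in CS. The share of all genes tested that was called ran from 10.3% in gCap cells, where none of 5 members was, over 1.96% in aerocytes, 0.669% in arterial and 0.13% in venous cells to 0% in lymphatic cells. In fibroblasts 1 of 5 was called (Angpt1 in adventitial fibroblasts, higher in CS, where 3.1% of all genes were). In mural cells 2 of 6 were called, both in pericytes, where 1 CS mouse was compared with 2 RA mice and 12.3% of all genes were called, with no exact test possible, and none of the mural tests was called with mice of at least 3 cells. Of the 30 pairs, 7 passed the filter through 1 group alone, in which the gene was higher, so that a difference was built into their being tested. They were Angpt2 in arterial, venous and gCap cells and Angpt1 in gCap and lymphatic cells (CS alone), and Tek and Tie1 in pericytes (RA alone), and 2 of them are among the 4 called. In mesothelial cells no member passed the filter. Fewer cells with a transcript and less RNA per cell cannot be told apart in a mean over cells.

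**Figure D2:**
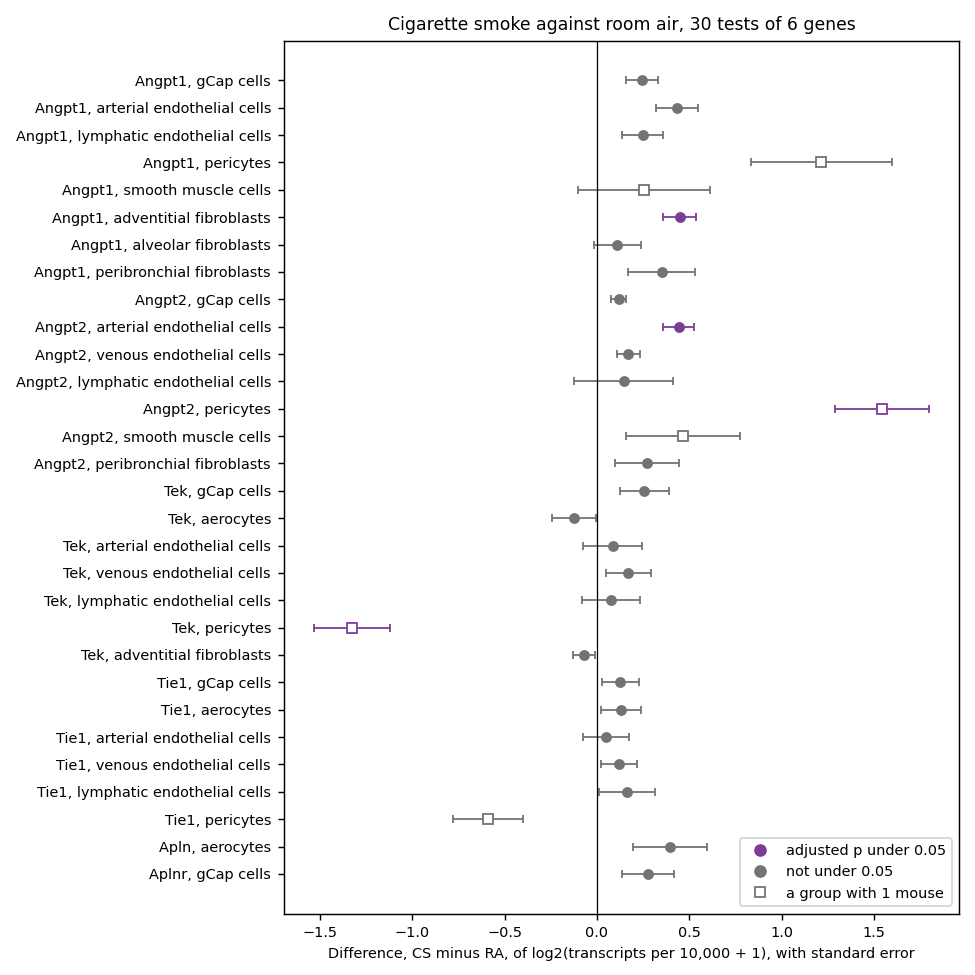
The 30 tests of cigarette smoke against room air. The horizontal axis gives the difference of log2(transcripts per 10,000 + 1), CS minus RA, with its standard error, purple where the adjusted p was under 0.05, and open squares where a group held 1 mouse. Angpt1 and Angpt2 lie right of 0 in every type tested. Of these tests, 5 passed the filter through CS cells alone, so that a difference was built into their being tested. They are Angpt2 in arterial, venous and gCap cells and Angpt1 in gCap and lymphatic cells. The types also share the same mice, so the tests are not independent. Angpt1 in smooth muscle cells turns to -0.08 when counts are summed over cells first and to -0.38 with mice of at least 3 cells. Angpt2 in lymphatic cells turns to -0.26 without RA mouse F1 and to -0.18 with mice of at least 50 cells. The only tests far left of 0 are Tek and Tie1 in pericytes.

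Angpt2 in arterial cells was higher in CS mice, and it passed the filter through CS cells alone (16.1% of cells in CS and 6.94% in RA mice). The CS mice held 0.355 (C2), 0.771 (C5), 0.472 (D2) and 0.489 (D5), and the RA mice 0.185 (F1), 0.0903 (F3), 0.155 (M1) and 0.0342 (M3). The groups did not overlap, with all CS mice higher. The means were 0.522 ± 0.177 and 0.116 ± 0.0674 (SD, n = 4 each), a ratio of 4.49 on the linear scale and a difference of 0.44 on the log2(mean + 1) scale (SE 0.0846, limma adjusted p = 0.0253). An exact permutation test over mice, two-sided, gave 0.0286, the lowest p possible with 4 against 4 mice. In arterial cells, 0.669% of 7920 genes were called in either direction and 0.341% as higher in CS, and 4.32% lay in this order without overlap.

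With a filter on the mean share over all mice, whatever their group, added after the data were seen, Angpt2 (11.5% of cells) was tested and the adjusted p was 0.0270. The share of arterial cells with an Angpt2 transcript was 9.52% to 23.2% in CS mice and 4.29% to 10.3% in RA mice, so the shares overlapped while the levels did not. RA mice gave 40 to 70 arterial cells each and CS mice 84 to 173. The call was lost when RA mice M1 and M3, which had under 50 arterial cells, were left out (adjusted p = 0.0863), without the filter on the share of cells (adjusted p = 0.268), with a filter of 25%, which it did not pass, and in 5 of 8 fits with 1 mouse left out, those without CS mice C5, D2 or D5 or RA mice F3 or M3 (adjusted p 0.0521 to 0.0889). The summed level of 4 arterial markers was also higher in these cells of CS mice, at 7.63 to 10.7 compared with 4.90 to 7.34, and that of 4 gCap markers was lower, at 16.9 to 18.7 compared with 20.2 to 26.4, all 4 markers of each list being above 0, and their part in the result was not tested. Among arterial cells with Gja5 or Bmx, markers of arteries, the Angpt2 difference was 0.36 (adjusted p = 0.0749). These cells held 0.181, 0.738, 0.376 and 0.447 in CS mice C2, C5, D2 and D5 and at most 0.157 in an RA mouse, so that C2 lay close to RA mouse F1. The arterial cells without either marker, 18 to 48 in a CS mouse, held more Angpt2 than those with one in each of the 4 CS mice, at 0.995, 0.847, 0.721 and 0.616, and in RA mice F1 and F3. Mcph1, on the other strand, held 0.180 to 0.305 in CS and 0 to 0.389 in RA mice (exact two-sided permutation p = 0.657).

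Angpt2 in the other endothelial types did not pass the threshold. In gCap cells, the CS mice held 0.364, 0.299, 0.241 and 0.298 (C2, C5, D2, D5) and the RA mice 0.127, 0.188, 0.199 and 0.280 (F1, F3, M1, M3), which overlap. The difference was 0.12 (SE 0.0412, limma adjusted p = 0.0797), with CS higher in 4 of 4 sequencing lanes, each of which held 1 mouse of each group. None of the 5 members tested was called in gCap cells, where 10.3% of 6556 genes were called. Of these genes, 889 had every CS mouse above every RA mouse, so at least that many were higher in CS in every lane. Without RA mouse M3 the adjusted p for Angpt2 was 0.0471. In venous cells the difference was 0.17 (SE 0.0626, adjusted p = 0.249, and 0.616 without the filter), and 0.13% of 7706 genes were called there. In lymphatic cells, where Angpt2 is highest, CS mice averaged 2.20 ± 0.476 and RA mice 2.19 ± 1.4 (SD, n = 4 per group), a log2 difference of 0.14 (SE 0.267, adjusted p = 0.884). Without RA mouse F1 it was -0.26. No gene was called in lymphatic cells by limma, of 8281 tested (0%), and 782 had an unadjusted p under 0.05. In aerocytes, where Angpt2 did not pass the filter, the ranges were 0.0558 to 0.131 in CS and 0.0341 to 0.0560 in RA mice (exact two-sided permutation p = 0.0571). B cells held 0.00752 to 0.0206 in CS and 0 to 0.0436 in RA mice, so RA aerocytes overlapped them. Cells annotated as T cells held 0.0112 to 0.0370 in CS and 0 to 0.0226 in RA mice (exact two-sided permutation p = 0.343 and 0.114).

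Angpt1 was higher in the adventitial fibroblasts of CS mice. They held 3.56 (C2), 3.36 (C5), 3.51 (D2) and 3.43 (D5), and those of RA mice 2.09 (F1), 2.27 (F3), 2.66 (M1) and 2.10 (M3). The CS mice lay close together and all above the RA mice. The means were 3.46 ± 0.0896 and 2.28 ± 0.269 (SD, n = 4 each), a ratio of 1.52 and a log2 difference of 0.45 (SE 0.0906, limma adjusted p = 0.0317, exact two-sided permutation p = 0.0286). In these fibroblasts 3.1% of 9406 genes were called, 1.91% as higher in CS, and 7.9% lay wholly higher in CS mice. With the lane as a block, the difference was the same and the adjusted p 0.105, and without the filter on the share of cells it was 0.112. The adjusted p was also above the threshold in 7 of 8 fits with 1 mouse left out (0.0561 to 0.0910), all but that without RA mouse M1 (0.0302), and 0.0778 in the 728 cells without endothelial transcripts. The summed level of the 4 adventitial markers was 69.0 to 91.7 in CS and 91.3 to 109 in RA mice, and that of 4 markers of fibroblasts in general 37.9 to 65.4 and 24.3 to 44.0. Their part in the result was not tested.

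In alveolar fibroblasts, the main source of Angpt1, the level did not differ beyond the spread between mice. CS mice averaged 11.2 ± 1.4 and RA mice 10.3 ± 1.10 (SD, n = 4 per group), with a log2 difference of 0.11 (SE 0.127, adjusted p = 0.637), where 1.37% of 8329 genes were called. The difference was 0.0395 without CS mouse D2 and 0.0380 without RA mouse F3. In peribronchial fibroblasts CS mice held 1.36, 0.840 and 1.27 (C5, D2, D5) and RA mice 0.753, 0.645 and 0.639 (F1, F3, M1). The groups did not overlap, but the adjusted p was 0.605, the exact permutation p was 0.10, the smallest for 3 against 3 mice, and 8% of the 7247 genes lay in this order. No gene was called by limma (0%), and 622 had an unadjusted p under 0.05. Angpt2 in peribronchial fibroblasts differed by 0.27 (limma adjusted p = 0.663), and by 0.0834 to 0.691 over the alternatives.

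Angpt1 in arterial cells lay in the same order without passing the threshold. CS mice held 0.942, 0.527, 0.818 and 1.11 (C2, C5, D2, D5) and RA mice 0.156, 0.301, 0.486 and 0.526 (F1, F3, M1, M3), so that C5 and M3 almost touched. The difference was 0.43 (SE 0.114, limma adjusted p = 0.0863, exact permutation p = 0.0286). Among cells with Gja5 or Bmx it was 0.51, with an adjusted p of 0.0442, and with counts summed over cells first the adjusted p was 0.0343. These were the only 2 of 21 alternatives called, with limma adjusted p up to 0.422. None of the 8 fits with 1 mouse left out was called (adjusted p 0.0750 to 0.253). Arterial cells without either marker held 0.109, 0, 0.584 and 1.64 in CS mice (C2, C5, D2, D5). In RA mice they held 0, 0.239, 0 and 1.99 (F1, F3, M1, M3), so the groups overlapped. In gCap cells, the CS mice held 0.321, 0.314, 0.568 and 0.586 (C2, C5, D2, D5) and the RA mice 0.0947, 0.130, 0.271 and 0.394 (F1, F3, M1, M3). Within each of the 4 lanes the CS mouse had more, and the difference was 0.24 (SE 0.0879, adjusted p = 0.0863). By lane, at least 889 of the 6556 genes tested in gCap cells went the same way. In lymphatic cells it was 0.25 (SE 0.113, adjusted p = 0.495). In aerocytes, where Angpt1 did not pass the filter, CS mice (0.0632 to 0.103) lay wholly above RA mice (0.00997 to 0.0381), with an exact two-sided permutation p of 0.0286 and the same order in 8.71% of the genes tested there. B cells, which should lack Angpt1, held 0.00945 to 0.0430 in CS and 0.0299 to 0.0478 in RA mice (exact two-sided permutation p = 0.60). The cells annotated as T cells held 0.00357 to 0.163 in CS mice, the highest of which was above the aerocytes of any mouse, and 0 to 0.0468 in RA mice (exact two-sided permutation p = 0.314).

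**Figure D3:**
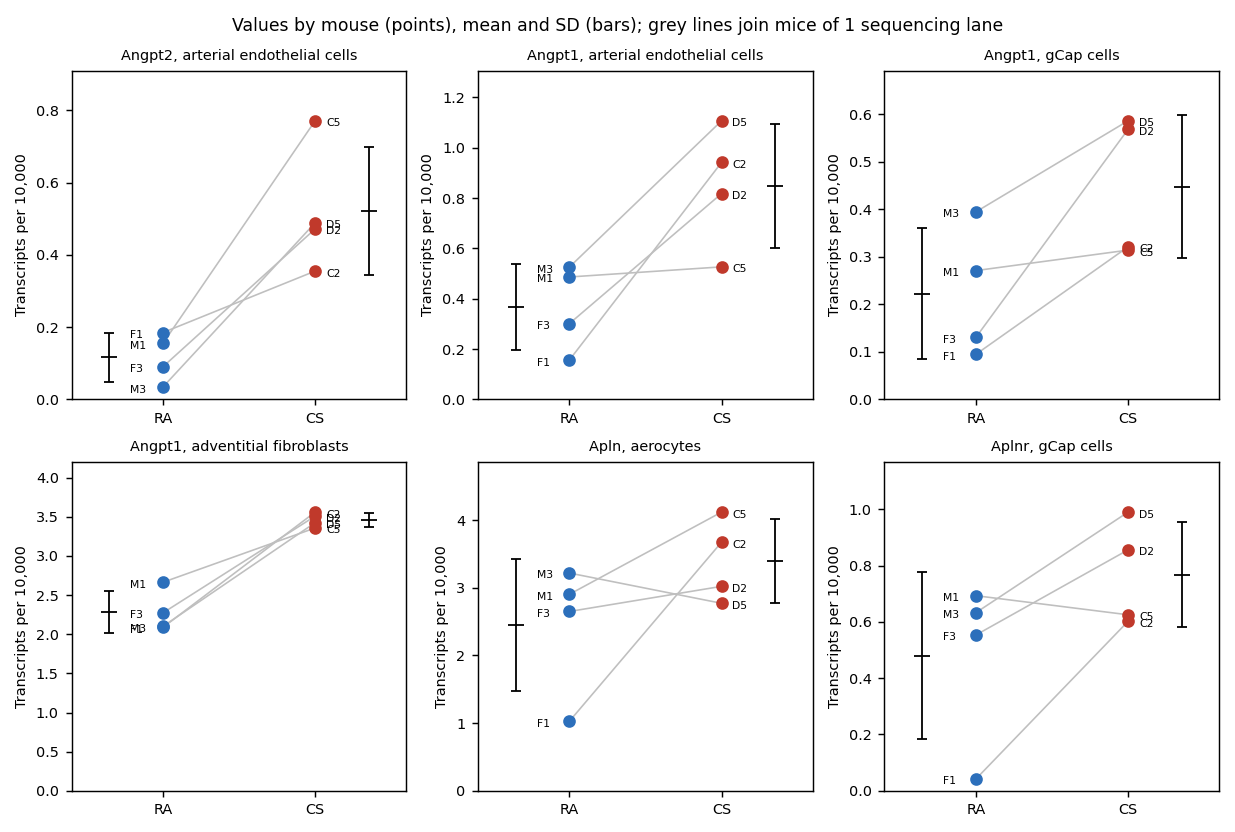
Values by mouse in transcripts per 10,000 for 6 gene and type pairs, RA in blue and CS in red, with the mean and SD beside the points and grey lines that join the mice of 1 sequencing lane. Angpt2 in arterial cells and Angpt1 in arterial cells and adventitial fibroblasts show no overlap between groups, and RA mouse F1 lies far below the others for Apln in aerocytes and Aplnr in gCap cells.

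In pericytes, the comparison rested on few cells. With at least 20 cells there were CS mouse D5 (22 cells) and RA mice F1 and F3 (126 and 84 cells), and the spread of the lone CS mouse was assumed to be that of the RA mice. Angpt2 was 3.48 in D5 and 0.244 and 0.90 in the RA mice (difference 1.54, SE 0.255, limma adjusted p = 0.0128). Tek was 0.228 in D5 and 1.92 and 2.25 in the RA mice (difference -1.33, SE 0.205, adjusted p = 0.0114), and it was found in 9.09% of the cells of D5 and 42.9% of those of the RA mice. Angpt1 (18.9 compared with 6.24 and 9.15, adjusted p = 0.0584) and Tie1 (0.293 compared with 1.19 and 0.735, adjusted p = 0.0623) did not pass. Here 12.3% of 8948 genes were called, 5.58% as higher and 6.75% as lower in CS, and the summed level of the digestion response genes, which rise when tissue is dissociated, was 16.4 in D5 and 74.9 and 107 in the RA mice.

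Cells under the pericyte label were split by endothelial transcripts. Of the 272 cells, 118 (43.4%) held Pecam1, Cdh5 or Cldn5, which mark endothelium. These had a median of 12102 UMIs compared with 2737 in the 154 cells without. In the other mural, fibroblast and mesothelial types the share ran from 34.9% (smooth muscle cells) to 48.1% (adventitial fibroblasts), so it is not particular to pericytes. Whether these cells were doublets was not tested. The cells with these transcripts held 3.81 Tek and 1.82 Tie1 per 10,000, and those without 0.0630 and 0.0632. Angpt1 went the other way, with 3.87 in cells with and 13.5 in cells without. Of the 118 cells, 71 were from F1 and 36 from F3. The 3 endothelial markers summed to 4.47 in D5 and to 14.2 and 20.95 in the RA mice, and all 3 were above 0.

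Without the cells that held endothelial transcripts, and with mice of at least 3 cells, all 8 mice could be compared. Angpt2 was then 1.44, 4.94, 3.11 and 3.74 in CS mice C2, C5, D2 and D5 (3, 7, 10 and 16 cells), and 0.206, 1.24 and 0.878 in RA mice F1, F3 and M1 (55, 48 and 12 cells), while M3 (3 cells) held none. In C2 only 33.3% of the 3 cells held Angpt2, so its place above F3 rests on very few cells. The CS mice lay wholly above the RA mice, with a difference of 1.45 (limma adjusted p = 0.0148), where 0.509% of 6090 genes were called and 1.82% lay in this order. Over all annotated pericytes of these mice, the summed level of 10 genes of the response to tissue digestion was 4.45 to 48.2 in CS and 47.0 to 107.3 in RA mice, that of 5 pericyte markers was 46.1 to 86.8 and 39.9 to 66.8, and their part in the result was not tested. Tek and Tie1 no longer passed the filter, and Angpt1 differed by 0.35 (adjusted p = 0.752). With all cells and mice of at least 3 cells, Angpt2 differed by 1.30 (adjusted p = 0.0550) and Tek by -0.73 (adjusted p = 0.532), where 0.216% of 8812 genes were called and 1.78% lay wholly higher in CS. This setting was chosen after the data were seen, and means over 3 to 16 cells carry a large counting error.

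**Figure D4:**
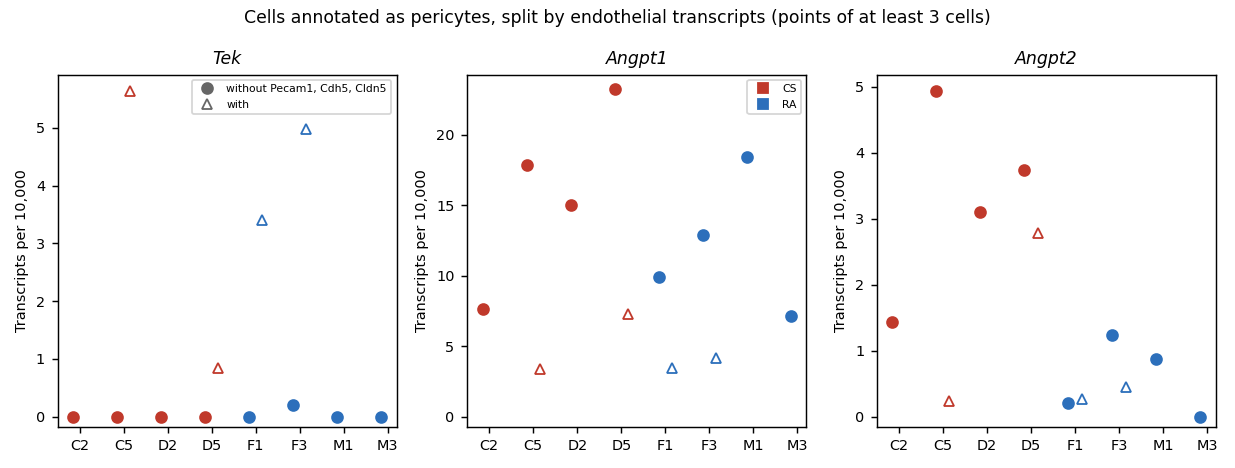
Cells annotated as pericytes, by mouse, as transcripts per 10,000 of Tek, Angpt1 and Angpt2, red for CS and blue for RA. Filled circles are cells without Pecam1, Cdh5 or Cldn5 and open triangles cells with any of them, for points of at least 3 cells. Tek lies almost wholly in the cells with endothelial transcripts, and Angpt2 in the cells without is higher in each CS mouse than in each RA mouse. The lowest CS value, 1.44 in C2, is a mean over 3 cells, of which 33.3% held Angpt2. It lies close to the 1.24 of RA mouse F3 over 48 cells.

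In smooth muscle cells, 2 CS mice were compared with 1 RA mouse. Angpt1 differed by 0.25 (SE 0.357, limma adjusted p = 0.800) and Angpt2 by 0.47 (SE 0.309, adjusted p = 0.593). With mice of at least 3 cells, 4 against 4, these were -0.38 and 0.0298. In the fit of 3 mice, none of 8838 genes was called (0%), with 842 at an unadjusted p under 0.05.

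No change in the receptors was called outside pericytes. Tek in gCap cells was 10.7, 9.22, 10.9 and 11.2 in CS mice (C2, C5, D2, D5) and 6.55, 9.04, 9.16 and 10.1 in RA mice (F1, F3, M1, M3). The groups overlap, with means of 10.5 ± 0.882 and 8.70 ± 1.51 (SD, n = 4 each), a log2 difference of 0.26 (SE 0.133, adjusted p = 0.192) and a higher CS mouse in 4 of 4 lanes. At least 889 of the 6556 genes tested in gCap cells showed this order by lane. Without RA mouse F1 the difference was 0.14 (adjusted p = 0.312). Tek differed by 0.08 in arterial (adjusted p = 0.854), by 0.17 in venous (adjusted p = 0.542) and by 0.08 in lymphatic cells (adjusted p = 0.899). Without F1 it was -0.0745 in arterial, 0.11 in venous and -0.0609 in lymphatic cells, and without CS mouse D5 it was -0.0318 in lymphatic cells. In aerocytes, where 1.96% of 6876 genes were called, CS mice held 0.393 ± 0.204 and RA mice 0.521 ± 0.257 (SD, n = 4 per group, adjusted p = 0.525), and in adventitial fibroblasts 0.510 ± 0.0695 and 0.585 ± 0.0796 (adjusted p = 0.513). Tie1 differed by 0.05 to 0.16 on the log2 scale in the 5 endothelial types, with adjusted p from 0.382 to 0.902. Single mice moved these values: without F1 the difference was 0.0664 in gCap cells, 0.0274 in aerocytes and 0.00382 in arterial cells, without F3 it was 0.00368 in arterial cells, and without M3 it was 0.0306 in lymphatic cells. In venous cells alone among them did the groups not overlap, with 3.50 to 4.01 in CS and 3.15 to 3.50 in RA mice, the nearest of which almost touched (exact two-sided permutation p = 0.0286, limma adjusted p = 0.588), an order that 5.87% of genes showed there.

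The transcripts of Apln in aerocytes and of Aplnr in gCap cells did not differ beyond the spread between mice. Apln in aerocytes was 3.67, 4.12, 3.02 and 2.77 in CS mice (C2, C5, D2, D5) and 1.03, 2.65, 2.90 and 3.22 in RA mice (F1, F3, M1, M3). The difference of 0.39 (SE 0.200, limma adjusted p = 0.243) was 0.16 without F1. CS was higher in each sequencing lane but that of D5 and M3. Aplnr in gCap cells was 0.602, 0.625, 0.856 and 0.990 in CS mice and 0.0415, 0.553, 0.693 and 0.633 in RA mice, in the same order of mice. The difference of 0.28 (SE 0.142, adjusted p = 0.188) was 0.12 without F1, in which 1.35% of 2075 gCap cells held the transcript. For Aplnr, CS was higher in each lane but that of C5 and M1. In venous cells, where Aplnr did not pass the filter, CS mice held 0.0835 to 0.557 and RA mice 0.0175 to 0.210 (exact two-sided permutation p = 0.40). In gCap cells the summed digestion response genes were 45.0 to 75.8 in CS and 94.7 to 123 in RA mice, without overlap, and their part in these values was not tested.

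Whether smoke acted differently on neighbouring vessel types was tested on the difference of the log2 values of each mouse. Between gCap cells and aerocytes, no member was called (adjusted p 0.527 to 0.993), and 5 of 7442 genes were (0.0672%). Between arterial and venous cells, no member was called and no gene was (0% of 8407 by limma, 565 with an unadjusted p under 0.05). The effect on Angpt1 was 0.41 higher in arterial than in venous cells (limma adjusted p = 0.535) and that on Angpt2 0.27 higher (limma adjusted p = 0.620). Angpt2 was called in arterial and not in venous cells, but its change was not shown to differ between them.

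Partners of the Tie receptors and of apelin were taken from 2 lists. Of 20 Tie partners 19 were in the files, and 13 to 16 passed the filter in each type. In gCap cells 1 of 15 was called, a share no higher than the 10.3% of all genes called there. This was Klf2, a transcription factor of endothelial cells under flow, which was lower in CS. CS mice held 12.3 ± 2.10 and RA mice 19.2 ± 2.50 (SD, n = 4 per group, difference -0.60, SE 0.141, limma adjusted p = 0.0336), and no RA mouse was as low as the highest CS mouse. Of the 6556 genes tested there, 720 lay wholly lower in CS mice. The adjusted p of Klf2 ran from 0.0238 to 0.131 over the alternatives, and the lower digestion response genes of CS gCap cells stand beside it, their part not tested. The list's median difference in gCap cells was 0.01, as was that of all genes tested. Svep1, an extracellular matrix protein that binds Tie1, was the only partner called in fibroblasts, 1 of 16 Tie partners tested in the alveolar (1.37% of all genes called) and 1 of 16 in the adventitial type (3.1%). In alveolar fibroblasts CS mice held 4.83 ± 0.176 and RA mice 3.04 ± 0.265 (SD, n = 4 per group, difference 0.53, SE 0.0946, adjusted p = 0.0169), without overlap. Of the 8329 genes tested there, 558 lay wholly higher in CS mice. In adventitial fibroblasts CS mice held 2.11 ± 0.435 and RA mice 1.14 ± 0.394 (difference 0.55, SE 0.135, adjusted p = 0.0494), again without overlap, an order that 7.9% of genes showed there. Over the alternatives the adjusted p ran from 0.00619 to 0.0928 in alveolar and from 0.0308 to 0.206 in adventitial fibroblasts. No Tie partner was called in the other endothelial types, smooth muscle, peribronchial fibroblasts or mesothelial cells.

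Of 11 apelin partners, 5 to 8 passed the filter in each type, and none was called outside pericytes. The smallest p in gCap cells were those of Gnai2, an inhibitory G protein subunit (CS 6.84 ± 0.589, RA 8.91 ± 0.512, SD, n = 4 per group, limma adjusted p = 0.0503) and Grk2, a kinase that desensitizes such receptors (0.462 ± 0.0279 and 0.396 ± 0.0338, adjusted p = 0.139). In pericytes, with 1 CS and 2 RA mice and 12.3% of all 8948 genes called, 3 of 16 Tie partners (Klf2, Foxo1 and Ptprb) were called lower, and of 7 apelin partners Gnai2 was called lower and Grk2 higher (limma adjusted p 0.0255 to 0.0442), beside the endothelial transcripts that differed between these same mice.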

How the data were processed

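Single-cell libraries (10x Genomics 3′ v3) of 4 CS and 4 RA mice were grouped by the exposure label. Per the labels and the study's methods, the authors aligned reads to GRCm38.p6 with STARsolo (STAR 2.7.3a), removed free RNA with SoupX and annotated the cells; cells with few UMIs or a high mitochondrial share were removed before deposit. Whether counting used strand is not given in the sources used here. The deposited matrix holds estimated counts (1.28% of values are whole within 1e-06), which were not scaled, so no count model was used. Cells annotated as multiplets or cell cycle (1032 of 41106) were dropped, without a further search for doublets.

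Each cell was scaled to 10,000 transcripts and averaged per mouse and type. Percent of cells is the share with a value above 0 in the deposited counts. The tests used limma 3.58.1 in R 4.3.3 (eBayes with trend, pseudocount 1, at least 20 cells per mouse, genes detected in 10% or more of the cells in CS or in RA mice, each type alone), and exact two-sided permutation tests over mice. In data simulated from gCap, arterial and lymphatic values, 95%, 67% and 68% of log2 changes of 0.5 were recovered. The simulation drew independent noise for each gene and changed 200 genes, whereas 53 genes were called in arterial and 0 in lymphatic cells. For a gene far below 1 transcript per 10,000, a change of 0.5 on this scale is a large ratio. The shares recovered therefore do not give the power of the tests of the members. The labels place 1 CS and 1 RA mouse in each of 4 sequencing lanes, which pairs C2 with F1, D2 with F3, C5 with M1 and D5 with M3. Correlations of the deviations of lane mates from their group means ran from -0.281 to 0.411 over gCap, aerocyte, arterial and adventitial cells. The lane was therefore a block in an alternative only.

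Members, partner lists and marker lists were chosen with earlier results of these data known. All 6 members were followed in every type, but where a member did not pass the filter its values are given for some types only. Partners were named where called, or else the 2 with the smallest p in gCap cells. The 3 genes most like each member were named by correlation. The alternatives were a pseudocount of 0.1, no filter, a 25% filter, counts summed first, median scaling, the lane block, at least 50 cells, cells with Ptprc, Epcam or Sftpc left out, limma without trend, and each mouse left out. After the data were seen, mice with at least 3 cells, cells without transcripts of the other lineage, these together, arterial cells with Gja5 or Bmx, and a filter on the mean share over all mice were added. Gene positions are from GENCODE M21 and promoters from RefSeq. Lect2 was not analysed here. P-values measure the spread between these mice. Shares of cells cover counting error only in part, as cells of 1 mouse are not independent.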

Additional observations from a re-analysis of the deposited data

Results flagged for a closer look

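Of 44 groups of 4 mice looked at, 2 held a mouse far from the others, where chance alone gives about 1 in 20, or 2.2. Angpt1 in lymphatic endothelial cells of RA mouse M3 was 0.387 per 10,000 over 24 cells, compared with 0.0405 to 0.0743 in the other RA mice. Tie1 in aerocytes of CS mouse C2 was 2.88 per 10,000, compared with 3.24 to 3.27 in the other CS mice. By limma, the CS effect differed past the threshold for none of the 6 genes between gCap cells and aerocytes (0 at an unadjusted p under 0.05) and for none of the 4 tested between arterial and venous cells (2 at an unadjusted p under 0.05, Angpt1 and Angpt2).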

How the results depend on the processing

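Over the alternatives for single genes and types, 504 values kept their direction and side of the threshold, 7 passed it newly, 25 no longer passed it and 8 turned sign. Most of these values belong to pairs that were not called and had no call to lose. The call of Angpt2 in arterial cells held in 13 of the 21 alternatives in which it was tested. That of Angpt1 in adventitial fibroblasts held in 10 of 21. The number of members called in endothelium, 1, was 0 without a filter, 0 with a filter of 25% of cells, 0 with mice of at least 50 cells and 2 with counts summed first, and ran from 0 to 1 with 1 mouse left out. In mural cells, 2 became 4 with a pseudocount of 0.1, 4 with median scaling, 0 without a filter, 0 without the limma trend, 0 with mice of at least 3 cells, and 1 with this and without cells holding endothelial transcripts. In fibroblasts and mesothelium, 1 became 0 without a filter, 0 with cells of the other lineage left out at both cell minimums, and 0 to 1 with 1 mouse left out. With the lane as a replicate block, it also became 0, since Angpt1 in adventitial fibroblasts lost its call (difference 0.45, adjusted p = 0.105), and the block changed no other call. Mural cells could not be fitted with the block, with at least 50 cells or with a mouse left out. The sign turned for Tek in arterial cells without RA mouse F1 (-0.0745, and up to 0.19 with another mouse left out), for Angpt2 in lymphatic cells with at least 50 cells (-0.18) and without F1 (-0.26, and up to 0.33 with another left out), for Tek in lymphatic cells with at least 50 cells (-0.0431), without CS mouse D5 (-0.0318) and without F1 (-0.0609, and up to 0.15 with another left out), and for Angpt1 in smooth muscle cells with counts summed first (-0.0822) and with at least 3 cells (-0.38). The cause of these changes was not tested. With a filter on the mean share over all mice, the 3 counts were unchanged. Low levels, under 1 transcript per 10,000 for Angpt2 in blood endothelium, limit the precision.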
